A study of Mus musculus with 18 samples.

Results

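Germ cells sorted from the gonads of mouse embryos at stage E13.5 were compared with cells sorted at day 7 of the differentiation of embryonic stem (ES) cells in culture. The members are 4 of the 18 arrays of the study, chosen by their sample titles: 2 arrays of E13.5 germ cells and 2 of day 7 cells. The E13.5 cells carried a Dazl-GFP reporter, were freed from embryonic gonads with enzymes, and were sorted as GFP-positive. The day 7 cells came from an ES cell line with a Stella-GFP reporter (a bacterial artificial chromosome transgene, where Stella is the protein of Dppa3), which was grown on feeder fibroblasts in Lif, depleted of feeders, kept for 7 days in differentiation medium, and sorted as GFP-positive. The labels call the E13.5 cells in vivo germ cells and the day 7 cells in vitro primordial germ cells, and give a mixed C57BL/6 and 129SV strain and male sex for both groups. The reporter differs between the groups, the day 7 cells are of 1 ES cell line, and nothing in the labels tells if replicates came from separate cultures, litters or pools of embryos. Each array, an Agilent mouse whole-genome design, carried the total RNA of 1 sample, labelled in 1 colour.

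Primordial germ cells are the founders of eggs and sperm. After they settle in the gonad they switch on a set of germline genes, among them Ddx4, an RNA helicase used as a marker of gonadal germ cells, and Dazl, an RNA-binding protein, while their DNA is widely demethylated. Around the stage sampled here, germ cells in an ovary turn to meiosis under retinoic acid, with Stra8 as an early gene, and those in a testis arrest instead, with Nanos2, an RNA-binding protein, as a gene of the male path. The comparison shows which genes set germ cells of the gonad apart from sorted day 7 cells.

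Values are log2 levels, the background-subtracted signal of a probe relative to the 75th percentile of its array, so that a level of 0 equals that percentile. The 75th percentile of signal was 343 and 359 on the E13.5 arrays, against 290 and 321 on the day 7 arrays, and 64.0% and 61.9% of spots were well above background at E13.5, against 53.7% and 53.9% at day 7. Precision is limited by the number of arrays. The p-values and standard errors rest on a spread between replicates that is pooled over all groups of the study, and that spread may be technical. The median absolute difference between replicates was a log2 of 0.52 at E13.5, against 0.11 at day 7. The pooled spread can therefore understate that of the E13.5 arrays, most of all for genes that differ between them. In bulk RNA, fewer cells of a kind and less RNA per cell cannot be told apart. The E13.5 arrays lay on 1 slide and the day 7 arrays on 2 others, which were scanned at another time and read with another feature extraction protocol, so that slide, scan and protocol cannot be told apart from the groups.

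The E13.5 arrays differed from each other more than the day 7 arrays did. Across the 18876 genes tested, Pearson's r was 0.943 between the E13.5 arrays and 0.994 between the day 7 arrays, and 4892 genes were over 2-fold apart between the E13.5 arrays, against 754 between the day 7 arrays. The Y-linked translation factor gene Eif2s3y had log2 levels of -7.29 and 3.17 in E13.5 cells, against 1.39 and 1.46 in day 7 cells. Ddx3y, a Y-linked RNA helicase gene, had log2 levels of -7.45 and -1.36 in E13.5 cells, against -0.89 and -1.08 in day 7 cells. Kdm5d, a Y-linked histone demethylase gene, had log2 levels of -7.25 and -1.82 in E13.5 cells, against -5.02 and -4.95 in day 7 cells. All 3 were well above background on the array labelled E13.5 replicate 2 and not on the array labelled E13.5 replicate 1, although the labels call both male. Of the other members of the Y-linked list, the zinc finger genes Zfy1 and Zfy2 were well above background on all 4 arrays. Zfy1 had log2 levels of -3.34 and -2.30 in E13.5 cells, against -2.50 and -2.23 in day 7 cells, and Zfy2 had log2 levels of -4.79 and -2.31 in E13.5 cells, against -2.31 and -2.47 in day 7 cells, lowest on the array of replicate 1 in both cases. None of the 4 arrays measured the deubiquitinase gene Usp9y above background, and Uty and Sry were not among the genes tested. The libraries labelled E13.5 replicate 1 and replicate 2 are therefore also given one by one, as library 1 and library 2. Xist, the RNA that coats an inactive X chromosome, had 3 probes, none well above background on any of the 4 arrays, so that it has no measured level here.

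Across the genome, 4995 genes were higher in E13.5 than in day 7 cells and 3161 were lower, at a Benjamini-Hochberg adjusted p under 0.05 from limma. These are 26.5% and 16.7% of the genes tested (43.2% together), and the counts of each gene list are read against these shares. Both E13.5 arrays lay above both day 7 arrays for 44.6% of genes and below both for 27.8%. Of the 8156 genes called, 8153 had both E13.5 arrays on the same side of both day 7 arrays, and 61.2% were higher at E13.5. That split moved to 48.6% higher with arrays scaled to their median, and the median log2 fold change over all genes moved from 0.27 to 0.05, or to -0.12 after normexp background correction. Weights estimated from the spread were 0.125 for each E13.5 array and 3.09 for each day 7 array. With 2 arrays a group, weights within a group are equal by design, so they cannot tell which library deviates. The weighted fit left 2313 genes higher and 1868 lower. The count of higher genes was 4592 without library 1, 4995 without library 2, 3296 without day 7 replicate 1 and 3365 without day 7 replicate 2.

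**Figure D1:**
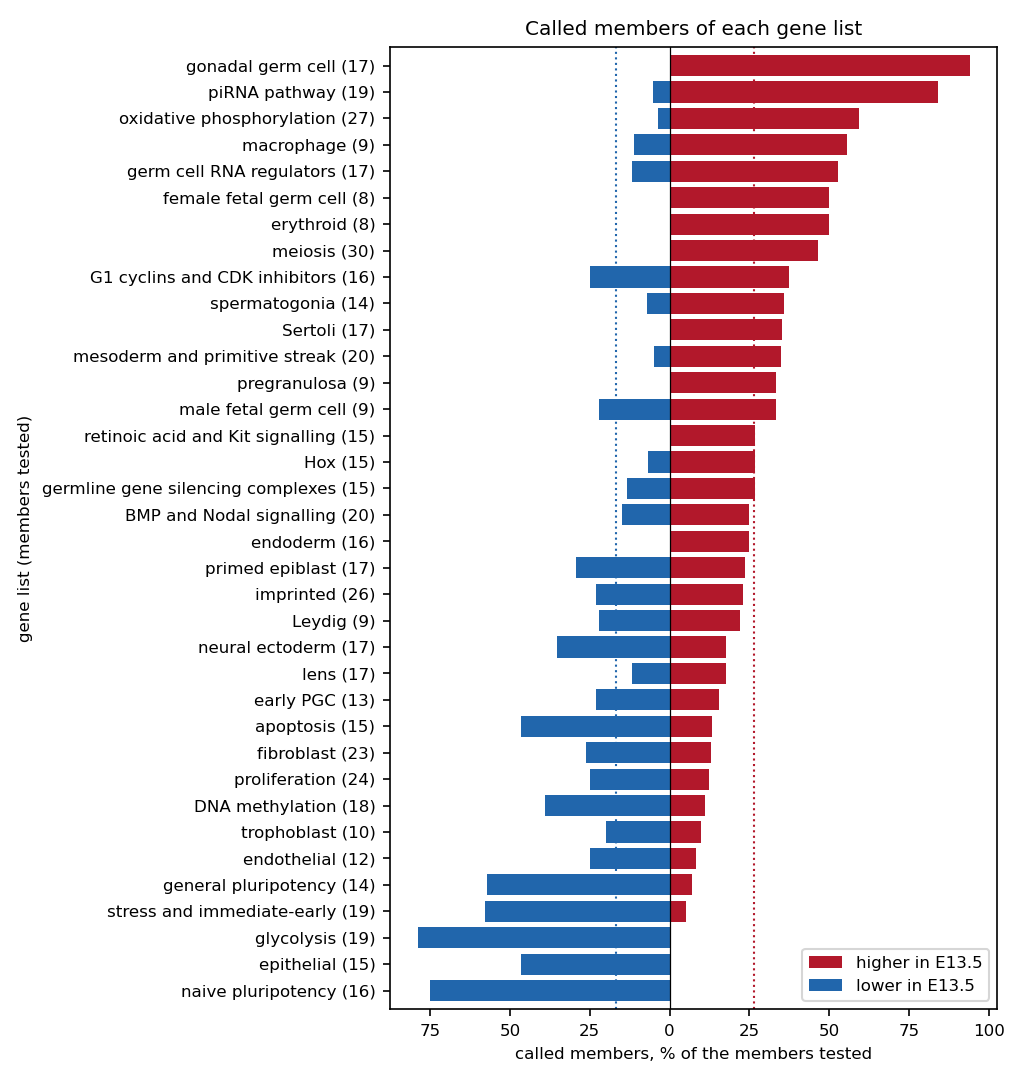
Share of the tested members of each gene list that were called higher (red, to the right) or lower (blue, to the left) in E13.5 than in day 7 cells, in percent, for lists with at least 8 tested members (number in brackets). Dotted lines mark the shares over all genes, 26.5% higher and 16.7% lower. The gonadal germ cell and piRNA lists reach furthest right, the glycolysis and naive pluripotency lists furthest left.

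Genes of gonadal germ cells were the group with the largest share called higher. Of 17 tested members of that list, 16 rose and none fell, with a median log2 fold change of 3.73 (3.80 by library 1 and 2.71 by library 2), against 0.27 over all genes. Library 1 was over 2-fold above library 2 for 8 of the 17 (14.6% of all genes were). The 16 include Dazl, whose reporter gated the E13.5 sort. Ddx4, the marker of the labelled cell type, had log2 levels of 5.59 and 4.98 in E13.5 cells, against 0.30 and 0.50 in day 7 cells. Both E13.5 arrays lay far above both day 7 arrays, a log2 fold change of 4.88 ± 0.23 (SE, limma, 2 arrays a group, adjusted p = 1.4e-07). The day 7 levels lay within the range of the 8 arrays of ES cells, 0.08 to 1.14. Dazl-GFP-positive cells of the juvenile testis, taken in the early weeks after birth, had 4.47 and 4.89.

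The genes that gated the sorts were described apart, since a gate sets their level. Dazl had log2 levels of 5.42 and 5.28 in E13.5 cells, against 1.63 and 1.61 in day 7 cells, a log2 fold change of 3.73 ± 0.16, and the E13.5 cells were sorted for its reporter. Dppa3, whose reporter gated the day 7 cells, had log2 levels of 5.43 and 6.95 in E13.5 cells, against 5.35 and 5.51 in day 7 cells, a log2 fold change of 0.76 ± 0.35 (adjusted p = 0.1) that did not pass the test with both libraries and did without library 1 (1.52, adjusted p = 8.8e-05).

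Further genes of this list showed the same separation of E13.5 from day 7 arrays. Slc25a31, the ADP/ATP carrier of germ cell mitochondria, had log2 levels of 3.31 and 1.99 in E13.5 cells, against -3.26 and -3.16 in day 7 cells, a log2 fold change of 5.86 ± 0.35 (adjusted p = 8e-07). Mael, a piRNA pathway protein of germ granules, had log2 levels of 5.41 and 4.11 in E13.5 cells, against -0.14 and -0.05 in day 7 cells, a log2 fold change of 4.85 ± 0.35 (adjusted p = 2.9e-06). Taf7l, an X-linked TFIID subunit of germ cells, had log2 levels of 3.26 and -0.97 in E13.5 cells, against -3.52 and -3.83 in day 7 cells, so that library 1 lay well above library 2 and both above day 7. The kinase gene Stk31 rose by a log2 fold change of 2.74 ± 0.26, the transcription factor gene Sohlh2 by 2.48 ± 0.30 and the histone reader gene Zcwpw1 by 3.84 ± 0.35. Dmrt1, a transcription factor of germ and Sertoli cells, had a smaller log2 fold change of 0.69 ± 0.21 (adjusted p = 0.019), which lost its call without library 2 (0.65, adjusted p = 0.0504) and without either day 7 array (0.74, adjusted p = 0.063 and 0.64, adjusted p = 0.098).

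**Figure D2:**
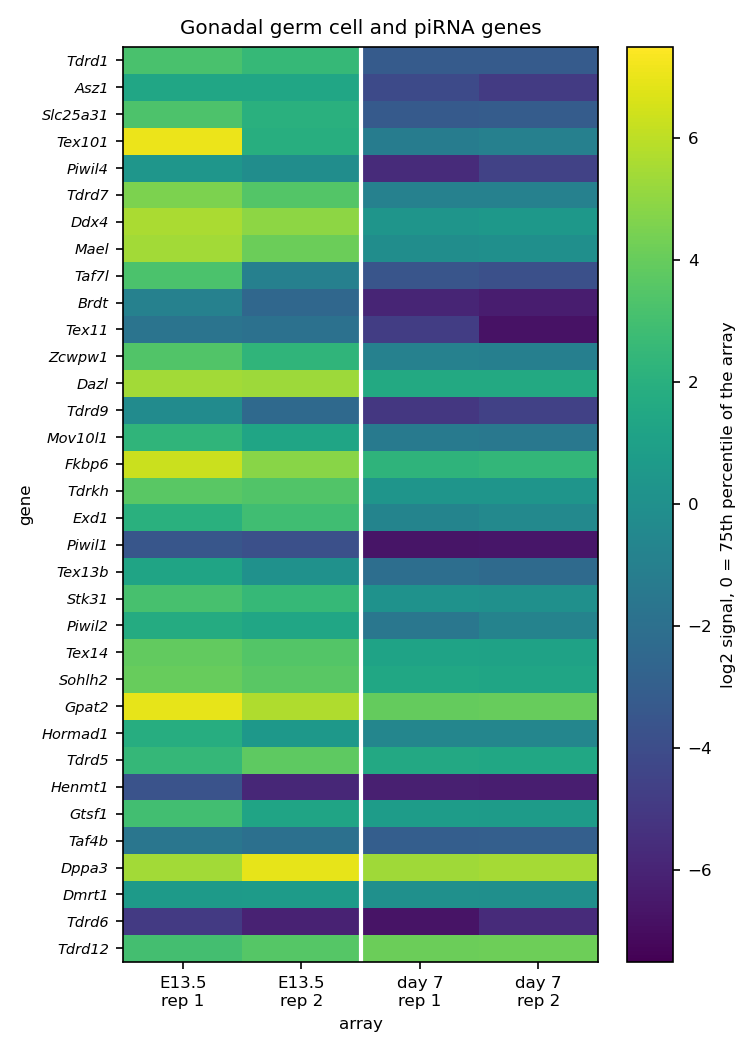
Log2 level of each tested member of the gonadal germ cell and piRNA lists on the 4 arrays (colour, 0 is the 75th percentile of the array), E13.5 left and day 7 right, ordered by log2 fold change. Tdrd1 at the top differs by a log2 of 6.07, and Tdrd12 at the bottom was called lower at E13.5.

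The promoters of these genes are shown because members of both lists moved together and because the letters CACGTG, an E-box that reads the same on both strands, recur in them. Windows run from 250 bases before to 50 bases after the annotated start (RefSeq, build GRCm38.p6), are written 5′ to 3′ on the gene's strand, and carry the E-box in capitals. The 6 windows below are those of Ddx4 (chr13:112652261-112652560, minus strand), Mael (chr1:166238695-166238994, minus strand), Tdrd1 (chr19:56825959-56826258, plus strand, the first of 3 annotated starts), Slc25a31 (chr3:40708621-40708920, plus strand), Taf7l (chrX:134476441-134476740, minus strand) and, as a gene with no E-box in its window, Dazl (chr17:50293571-50293870, minus strand).
Ddx4: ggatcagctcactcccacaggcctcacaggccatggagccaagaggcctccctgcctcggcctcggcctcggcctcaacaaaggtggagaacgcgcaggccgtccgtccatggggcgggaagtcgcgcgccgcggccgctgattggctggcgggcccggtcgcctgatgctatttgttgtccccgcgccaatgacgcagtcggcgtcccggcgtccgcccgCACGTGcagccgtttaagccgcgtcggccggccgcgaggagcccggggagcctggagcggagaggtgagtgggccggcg
Mael: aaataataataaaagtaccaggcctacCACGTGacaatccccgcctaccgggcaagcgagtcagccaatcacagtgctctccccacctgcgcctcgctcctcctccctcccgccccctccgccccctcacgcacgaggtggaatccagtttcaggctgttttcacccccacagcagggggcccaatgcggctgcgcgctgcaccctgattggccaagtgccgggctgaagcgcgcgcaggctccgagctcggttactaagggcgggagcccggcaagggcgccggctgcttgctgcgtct
Tdrd1: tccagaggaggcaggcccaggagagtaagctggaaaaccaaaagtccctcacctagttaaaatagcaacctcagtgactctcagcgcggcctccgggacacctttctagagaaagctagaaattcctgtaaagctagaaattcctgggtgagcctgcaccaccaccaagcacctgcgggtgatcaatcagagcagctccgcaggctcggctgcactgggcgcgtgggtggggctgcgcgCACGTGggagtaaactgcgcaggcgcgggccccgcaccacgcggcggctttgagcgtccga
Slc25a31: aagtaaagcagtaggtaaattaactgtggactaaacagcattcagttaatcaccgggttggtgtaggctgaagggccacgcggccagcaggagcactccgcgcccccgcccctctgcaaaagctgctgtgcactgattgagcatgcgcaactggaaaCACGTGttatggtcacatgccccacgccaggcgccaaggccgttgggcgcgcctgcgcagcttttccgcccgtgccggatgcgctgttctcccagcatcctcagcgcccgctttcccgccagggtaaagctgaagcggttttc
Taf7l: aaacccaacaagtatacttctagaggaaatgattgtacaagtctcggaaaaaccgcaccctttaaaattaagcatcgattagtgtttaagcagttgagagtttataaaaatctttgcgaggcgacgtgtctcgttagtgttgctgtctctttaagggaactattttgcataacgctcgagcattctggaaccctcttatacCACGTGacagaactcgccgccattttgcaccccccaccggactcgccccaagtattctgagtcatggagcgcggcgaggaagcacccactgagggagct
Dazl: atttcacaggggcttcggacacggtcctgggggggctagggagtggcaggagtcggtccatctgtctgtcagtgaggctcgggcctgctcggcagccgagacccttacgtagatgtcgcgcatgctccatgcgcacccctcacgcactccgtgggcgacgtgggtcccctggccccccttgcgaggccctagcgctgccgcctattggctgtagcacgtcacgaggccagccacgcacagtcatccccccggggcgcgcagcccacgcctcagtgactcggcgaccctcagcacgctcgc
The E-box began 29 bases before the start in Ddx4, 223 in Mael, 11 in Tdrd1, 93 in Slc25a31 and 49 in Taf7l. Of the 17 tested gonadal germ cell genes, 13 had a promoter in the table, and 7 of these (53.8%) held the letters in at least 1 window. Among piRNA pathway genes 7 of 17 (41.2%) and among meiosis genes 7 of 25 (28.0%) did so. Counted by window, the share was 7.15% over all 32851 windows of this length. Counted by gene, as in the lists, it was 8.09% over all 27025 genes with a window and 11.1% over the 12282 tested ones. It was 11.2% over the genes called higher and 11.9% over those called lower. Glycolysis genes held them in 2 of 18 cases. A match is a description of letters, not of a bound site, and the lists were not matched in base composition. The letters were chosen because they recur in these promoters. The lists also share members, such as Ddx4 and Mael between gonadal and piRNA genes and Hormad1 between gonadal and meiosis genes. The shares are therefore a description and not a test of enrichment.

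The piRNA pathway, which makes small RNAs that silence transposons in germ cells, rose almost as a whole. Of 19 tested genes, 16 were higher and 1 was lower, with a median log2 fold change of 3.21. Tdrd1, a tudor-domain scaffold of germ granules, had log2 levels of 3.22 and 2.56 in E13.5 cells, against -3.18 and -3.19 in day 7 cells, a log2 fold change of 6.07 ± 0.27 (adjusted p = 8.8e-08), while its other probe gave 2.61. Asz1, a mitochondrial outer-membrane partner of that machinery, had log2 levels of 1.38 and 1.40 in E13.5 cells, against -4.14 and -4.87 in day 7 cells, a log2 fold change of 5.89 ± 0.39 (adjusted p = 1.6e-06). Piwil4, a nuclear PIWI protein of fetal male germ cells, was well above background on both E13.5 arrays and neither day 7 array, and was at least 24.8-fold higher at E13.5 (adjusted p = 0.00022). That bound sets the E13.5 mean against the lowest signal that counts as above background on the day 7 arrays.

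Both libraries lay above day 7 for most of the pathway, and library 1 was over 2-fold above library 2 for 8 of the 19 genes (14.6% of all genes were). Piwil2, a PIWI protein that makes primary piRNAs, had log2 levels of 1.71 and 1.41 in E13.5 cells, against -1.54 and -0.76 in day 7 cells, a log2 fold change of 2.71 ± 0.48. The tudor-domain gene Tdrd7 had log2 levels of 4.56 and 3.47 in E13.5 cells, against -0.92 and -0.92 in day 7 cells, a log2 fold change of 4.93 ± 0.33. Mov10l1, a helicase that starts piRNA processing, rose by a log2 fold change of 3.24 ± 0.38 and Tdrkh, a mitochondrial tudor protein, by 3.21 ± 0.19. Tdrd9, a helicase of the pathway, was at least 19.9-fold higher in library 1 and 4.62-fold in library 2. Piwil1, a PIWI protein best known from the adult testis, was at least 1.86-fold higher. Tdrd12, a tudor-domain helicase gene, was the member called lower, with log2 levels of 3.02 and 3.55 in E13.5 cells, against 4.10 and 4.19 in day 7 cells, and the call was lost without library 1 (log2 fold change -0.59, adjusted p = 0.11) and without either day 7 array (-0.90, adjusted p = 0.063 and -0.82, adjusted p = 0.086). Over 2-fold above the day 7 mean were 17 of the 19 genes in library 1 and 15 in library 2, against 28.0% and 25.3% of all genes.

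The wider list of germ cell RNA regulators overlaps with the germ cell markers and moved less evenly. Of 17 tested genes, 9 rose and 2 fell (1 fell without library 1 or without either day 7 array), with a median log2 fold change of 0.88. Dnd1, which protects germ cell mRNAs from microRNAs, had log2 levels of 4.31 and 4.98 in E13.5 cells, against 2.67 and 2.63 in day 7 cells, a log2 fold change of 1.99 ± 0.40 (adjusted p = 0.0022). Cpeb1, a regulator of polyadenylation, had log2 levels of 3.01 and 3.22 in E13.5 cells, against 0.78 and 0.61 in day 7 cells, a log2 fold change of 2.42 ± 0.37 (adjusted p = 0.00038). Boll, a relative of Dazl, rose by a log2 fold change of 2.91 ± 0.43, and Lin28a, which blocks let-7 maturation, by 1.58 ± 0.37. Tdrd3 rose by 3.24 ± 0.21 by its brightest probe, whereas another of its 3 probes gave -0.52. Igf2bp1, a carrier of fetal mRNAs, fell with a log2 fold change of -1.19 ± 0.26. Nanos3, which early primordial germ cells need to survive, had log2 levels of -1.78 and 0.56 in E13.5 cells, against -0.38 and -0.44 in day 7 cells, so that the day 7 arrays lay between the E13.5 arrays.

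Genes of early primordial germ cells did not rise as a group. Of 13 tested, 2 were higher and 3 lower, with a median log2 fold change of -0.16 that was -0.78 by library 1 and 0.56 by library 2, and 4 were higher without library 1. Tfap2c, a transcription factor that specifies primordial germ cells, had log2 levels of 2.85 and 2.06 in E13.5 cells, against 3.92 and 3.98 in day 7 cells, a log2 fold change of -1.49 ± 0.33 (adjusted p = 0.0035). Prdm1, its partner in specification, had log2 levels of 0.13 and 1.56 in E13.5 cells, against 1.05 and 0.97 in day 7 cells, and Kit, the receptor that germ cells use in migration, had log2 levels of 2.39 and 2.00 in E13.5 cells, against 2.48 and 2.49 in day 7 cells. Neither passed the test, with a log2 fold change of -0.16 ± 0.42 for Prdm1 and -0.29 ± 0.22 for Kit.

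Meiosis genes rose in number, but mostly through library 1. Of 30 tested, 14 were called higher and none lower, with a median log2 fold change of 1.68. The median stood at 3.33 in library 1 and at 0.45 in library 2, each minus the day 7 mean. More than 2-fold above day 7 were 25 of 30 genes in library 1, against 28.0% of all genes, and 9 of 30 in library 2, against 25.3% of all genes. Library 1 was over 2-fold above library 2 for 24 of the 30, against 14.6% of all genes. The count called was 4 with array weights, 7 without library 1, 25 without library 2, 8 without day 7 replicate 1 and 7 without day 7 replicate 2.

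Stra8, the retinoic acid target that opens meiosis, shows the split between the libraries. It had log2 levels of 8.87 and 1.55 in E13.5 cells, against 3.45 and 3.48 in day 7 cells, so that library 1 lay above and library 2 below both day 7 arrays. With both libraries the log2 fold change was 1.75 ± 1.73 (adjusted p = 0.43), and with library 1 alone, its spread taken from the other groups, it was 5.41, adjusted p = 0.0016. Rec8, the meiotic cohesin, had log2 levels of 7.45 and 3.14 in E13.5 cells, against 3.44 and 3.30 in day 7 cells, and Mei1, needed for meiotic breaks, had log2 levels of 3.20 and -3.40 in E13.5 cells, against -3.56 and -3.22 in day 7 cells. Library 2 stood between the day 7 arrays for Mei1 and just below them for Rec8.

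A smaller set of axis and synapsis genes was higher in both libraries. Smc1b, a meiotic cohesin subunit, had log2 levels of 7.26 and 5.38 in E13.5 cells, against 3.95 and 3.89 in day 7 cells, a log2 fold change of 2.40 ± 0.48 (adjusted p = 0.0022). Syce1, of the central element of the synaptonemal complex, had log2 levels of 5.53 and 3.95 in E13.5 cells, against 0.98 and 0.88 in day 7 cells, a log2 fold change of 3.81 ± 0.40 (adjusted p = 2.9e-05). Tex12, its neighbour in that complex, rose by 5.53 ± 0.64 and the cohesin gene Stag3 by 1.33 ± 0.29, both as log2 fold changes. Sycp2, of the lateral element, was at least 17.3-fold higher in library 1 and 6.92-fold in library 2. The lateral element gene Sycp3 had log2 levels of 1.13 and -1.77 in E13.5 cells, against -2.97 and -2.03 in day 7 cells, with library 2 just above the higher day 7 array, and lost its call without library 1 (0.73, adjusted p = 0.41), without day 7 replicate 1 (1.71, adjusted p = 0.22) and without day 7 replicate 2 (2.65, adjusted p = 0.07).

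**Figure D3:**
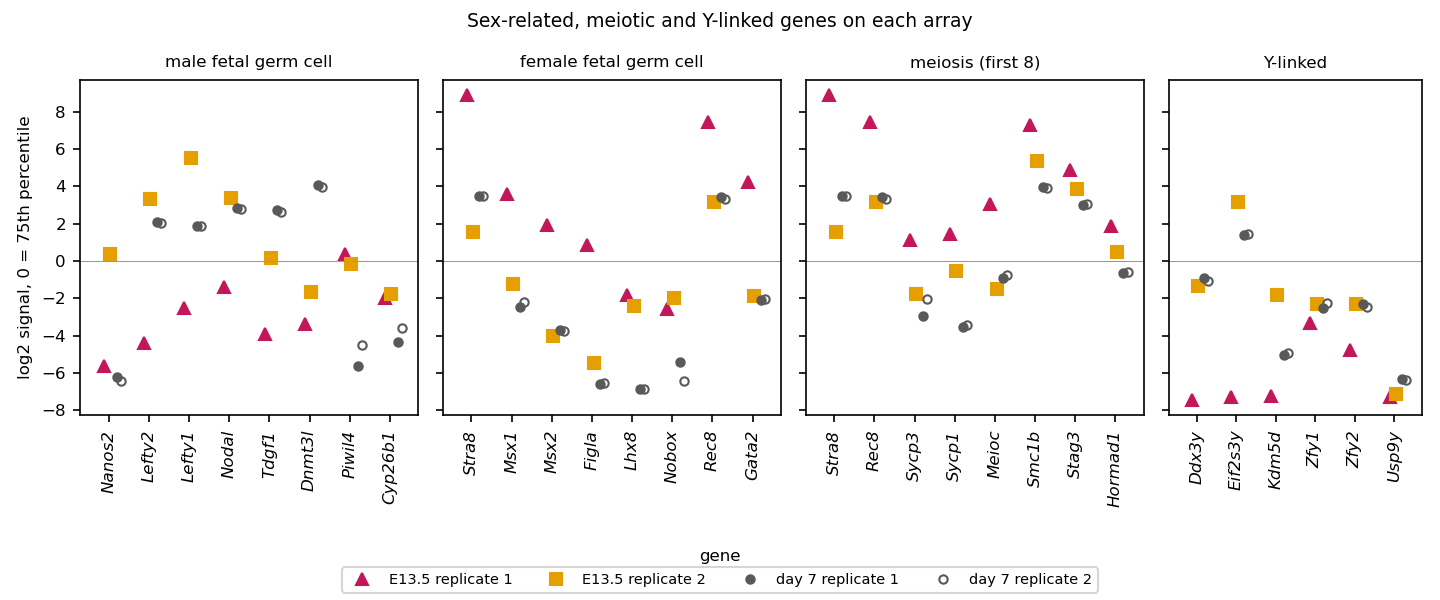
Log2 level of members of 4 lists on the E13.5 arrays (triangle, replicate 1; square, replicate 2) and the day 7 arrays (filled and open circles); 0 is the 75th percentile of the array. Replicate 1 is high in female fetal germ cell and meiosis genes, replicate 2 in male fetal germ cell genes and in Ddx3y, Eif2s3y and Kdm5d.

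Genes of male and female fetal germ cells divided the libraries in opposite directions. Of the 9 male genes, 7 were over 2-fold higher in library 2 than in library 1 (11.3% of all genes were), and none the other way. The 8 female genes include Stra8 and Rec8 of the meiosis list. For 6 of the 8, library 1 was over 2-fold above library 2 (14.6% of all genes were), and none went the other way. The median log2 level of library 1 minus library 2 was -4.76 for the male and 5.37 for the female list.

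In the male list, Nanos2 had log2 levels of -5.63 and 0.39 in E13.5 cells, against -6.22 and -6.45 in day 7 cells, and was well above background in library 2 alone of the 4. Lefty1, a secreted inhibitor of Nodal, had log2 levels of -2.54 and 5.50 in E13.5 cells, against 1.86 and 1.85 in day 7 cells, and Lefty2, its close relative, had log2 levels of -4.39 and 3.33 in E13.5 cells, against 2.10 and 2.03 in day 7 cells. For both genes the day 7 arrays lay between the libraries. Nodal itself, a growth factor of the TGF-beta family that is active in fetal male germ cells, had log2 levels of -1.39 and 3.37 in E13.5 cells, against 2.83 and 2.77 in day 7 cells. Tdgf1, the Nodal co-receptor, was lower than at day 7 in both libraries, with log2 levels of -3.92 and 0.14 in E13.5 cells, against 2.74 and 2.62 in day 7 cells, a log2 fold change of -4.57 ± 0.86 (adjusted p = 0.0015). Of the 9 male genes 3 were called higher and 2 lower, with 7 higher without library 1 and 6 lower without library 2. Nanos2 was among those called (adjusted p = 0.047), was not called without library 2 (0.71, adjusted p = 0.44), without day 7 replicate 1 (3.83, adjusted p = 0.13) or without day 7 replicate 2 (3.60, adjusted p = 0.15), and set against the day 7 floor was at least 31.1-fold higher in library 2 alone.

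In the female list, Msx1, a homeobox gene that Bmp signals induce in ovarian germ cells, had log2 levels of 3.57 and -1.24 in E13.5 cells, against -2.49 and -2.23 in day 7 cells, and Msx2, its paralogue, had log2 levels of 1.91 and -4.02 in E13.5 cells, against -3.72 and -3.74 in day 7 cells. Figla, a transcription factor of oocytes, had log2 levels of 0.84 and -5.46 in E13.5 cells, against -6.60 and -6.52 in day 7 cells, and was well above background in library 1 alone. Msx1 and Figla were called higher, Msx1 not without library 1 (1.12, adjusted p = 0.18), and neither without day 7 replicate 1 (Msx1 3.39, adjusted p = 0.1; Figla 4.21, adjusted p = 0.094) or without day 7 replicate 2 (Msx1 3.65, adjusted p = 0.08; Figla 4.29, adjusted p = 0.087). Lhx8 and Nobox, a pair of transcription factor genes of early oocytes, were above background in both libraries and on neither day 7 array. Lhx8 had log2 levels of -1.83 and -2.42 in E13.5 cells, against -6.84 and -6.85 in day 7 cells and was at least 5.42-fold higher, and Nobox had log2 levels of -2.59 and -1.99 in E13.5 cells, against -5.40 and -6.45 in day 7 cells and was at least 4.83-fold higher. Of the 8 female genes 4 were called higher and none lower, with 8 higher without library 2 and 2 without either day 7 array.

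**Figure D4:**
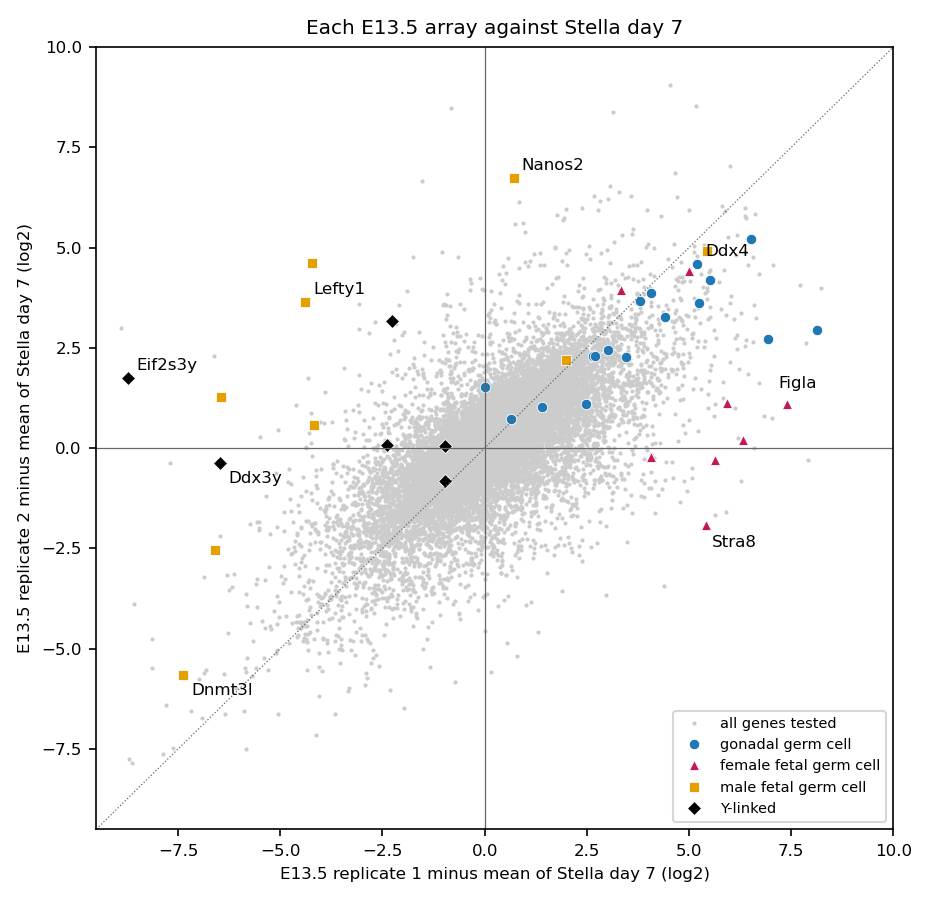
Log2 level on the E13.5 replicate 1 array (horizontal) and on the replicate 2 array (vertical), each minus the mean of the day 7 arrays, for every gene tested (grey) and for members of 4 lists (colours). Gonadal germ cell genes lie in the upper right, most female fetal germ cell genes right of the dotted line of equal change and most male fetal and Y-linked genes left of it.

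The largest differences between the libraries also included genes outside these lists. Of the 8 genes highest in library 1 relative to library 2, Cdx2, a homeobox gene of the trophoblast and hindgut, had log2 levels of 3.10 and -5.12 in E13.5 cells, against -4.71 and -4.93 in day 7 cells, Phlda2, an imprinted gene of the placenta, had log2 levels of 5.76 and -2.05 in E13.5 cells, against 1.22 and 1.54 in day 7 cells, and Sct, which encodes the hormone secretin, had log2 levels of 5.84 and -1.67 in E13.5 cells, against -0.04 and -0.10 in day 7 cells. The others were Stra8, Mei1, Lypd4, Cstad and BC051142. Of the 8 highest in library 2 relative to library 1, Uba1y, a Y-linked ubiquitin-activating enzyme gene, had log2 levels of -7.38 and 4.51 in E13.5 cells, against 1.38 and 1.63 in day 7 cells, and Pmaip1, the p53-induced death gene Noxa, had log2 levels of -4.03 and 4.90 in E13.5 cells, against 2.48 and 2.71 in day 7 cells. Cst9, a cystatin gene, had log2 levels of -7.15 and 2.16 in E13.5 cells, against -6.36 and -6.29 in day 7 cells, and was well above background in library 2 alone. Eif2s3y, Ucma, Lefty1 and Lefty2 were also among them.

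X-linked Rhox homeobox genes also stood higher in library 1, with all 6 tested members over 2-fold above library 2 (14.6% of all genes were). Of the 6, 3 were called higher than day 7 (5 without library 2). Rhox2a had log2 levels of 5.92 and 4.59 in E13.5 cells, against 0.63 and 0.53 in day 7 cells, a log2 fold change of 4.68 ± 0.51 (adjusted p = 3.7e-05), and Rhox13 had log2 levels of 4.37 and 1.46 in E13.5 cells, against -1.95 and -1.87 in day 7 cells, a log2 fold change of 4.83 ± 0.73 (adjusted p = 0.00036). Some Rhox genes are near-identical copies, and a probe may read several of them. Rhox5, the founding member, had log2 levels of 8.70 and 7.67 in E13.5 cells, against 7.56 and 7.51 in day 7 cells and did not pass the test.

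Pluripotency genes were mostly lower at E13.5, and those of the naive state most evenly. Of 16 tested naive genes, 12 were lower and none higher, with a median log2 fold change of -1.87 (-2.53 by library 1 and -1.59 by library 2), and 14 in library 1 and 13 in library 2 were over 2-fold below the day 7 mean (17.6% and 15.7% of all genes). Without library 1 a single member was called higher. Tbx3, a T-box factor that sustains self-renewal, had log2 levels of -4.33 and -4.22 in E13.5 cells, against 1.77 and 1.72 in day 7 cells, a log2 fold change of -6.02 ± 0.16 (adjusted p = 5.4e-09). Zfp42, also known as Rex1, had log2 levels of 2.12 and 3.93 in E13.5 cells, against 7.17 and 7.05 in day 7 cells, a log2 fold change of -4.08 ± 0.41 (adjusted p = 2.4e-05). Nr0b1, also known as Dax1, fell with a log2 fold change of -4.87 ± 0.86, the adhesion gene Jam2 with -3.38 ± 0.30, Esrrb with -1.77 ± 0.31, Tfcp2l1 with -1.61 ± 0.28 and Klf4 with -1.54 ± 0.24. Klf2 had a log2 fold change of -3.04 ± 0.21 by the probe that is brighter over all 18 arrays, and 0.32 by its other probe, which is the brighter one on the 4 arrays compared, so that its direction depends on the probe although it counts among the 12. Spp1, which encodes the secreted protein osteopontin, had log2 levels of -1.06 and 0.21 in E13.5 cells, against 5.84 and 5.77 in day 7 cells, a log2 fold change of -6.23 ± 0.33 (adjusted p = 3.8e-07).

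The core factors were less uniform. Of 14 tested general pluripotency genes, 8 were lower and 1, Lin28a, was higher, with a median log2 fold change of -1.10 (-1.81 by library 1 and -0.48 by library 2). Nanog had log2 levels of -0.82 and 1.35 in E13.5 cells, against 3.47 and 3.45 in day 7 cells, a log2 fold change of -3.20 ± 0.49 (adjusted p = 0.0004), with library 1 below library 2. Sox2 had log2 levels of 1.61 and 2.19 in E13.5 cells, against 3.97 and 4.00 in day 7 cells, a log2 fold change of -2.08 ± 0.26 (adjusted p = 9.3e-05). Pou5f1, which encodes Oct4, had log2 levels of 3.67 and 4.78 in E13.5 cells, against 5.14 and 5.15 in day 7 cells, and its log2 fold change of -0.92 ± 0.62 did not pass the test (adjusted p = 0.25). Sall4 had log2 levels of 2.89 and 3.46 in E13.5 cells, against 3.20 and 3.17 in day 7 cells, with the day 7 arrays between the E13.5 arrays.

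Primed epiblast genes gave no common direction, with 4 of 17 higher and 5 lower (6 higher without library 1). Nes, an intermediate filament gene of progenitors, had log2 levels of 1.74 and 2.25 in E13.5 cells, against 0.19 and 0.25 in day 7 cells, a log2 fold change of 1.77 ± 0.24. Foxd3, a forkhead factor, had log2 levels of -3.49 and -3.03 in E13.5 cells, against -0.82 and -0.89 in day 7 cells, a log2 fold change of -2.40 ± 0.42.

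Among genes that write, read or remove DNA methylation, more fell than rose. Of 18 tested, 7 were lower and 2 higher, with a median log2 fold change of -0.18 that was 0.03 with the probes of a gene averaged. Dnmt3l, the cofactor of de novo methylation, had log2 levels of -3.38 and -1.66 in E13.5 cells, against 4.05 and 3.94 in day 7 cells, a log2 fold change of -6.51 ± 0.40 (adjusted p = 8.2e-07). Dnmt3b, a de novo methyltransferase, had log2 levels of -1.78 and -0.64 in E13.5 cells, against 1.42 and 1.34 in day 7 cells, a log2 fold change of -2.59 ± 0.34 (adjusted p = 0.00014). Dnmt1, the maintenance enzyme, had log2 levels of 4.80 and 4.50 in E13.5 cells, against 3.72 and 3.69 in day 7 cells, a log2 fold change of 0.94 ± 0.20 (adjusted p = 0.0027). Its partner Uhrf1 had log2 levels of 3.58 and 3.43 in E13.5 cells, against 3.23 and 3.32 in day 7 cells, a difference that did not pass the test, and Dnmt3a, the other de novo enzyme, had log2 levels of 1.53 and 1.80 in E13.5 cells, against 1.79 and 1.53 in day 7 cells. Tet1 and Tet2, which oxidise methylcytosine, fell with a log2 fold change of -1.77 ± 0.38 and -2.28 ± 0.25. The count called higher was 3 without library 1, 4 without library 2, 1 without day 7 replicate 2 and 0 with arrays scaled to their median.

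Among genes of complexes that silence germline genes in other cells, 4 of 15 were higher and 2 lower, shares near those of all genes. Ehmt2, the H3K9 methyltransferase G9a, had log2 levels of 6.86 and 6.90 in E13.5 cells, against 5.21 and 5.19 in day 7 cells, a log2 fold change of 1.69 ± 0.21 (adjusted p = 0.0001), and its partner Ehmt1 rose by a log2 fold change of 1.39 ± 0.20. Suz12, a subunit of Polycomb complex PRC2, had log2 levels of 1.36 and 1.99 in E13.5 cells, against 3.83 and 3.87 in day 7 cells, a log2 fold change of -2.17 ± 0.22 (adjusted p = 2.5e-05), and Eed, of the same complex, fell with a log2 fold change of -0.93 ± 0.19. Mga, an E-box-binding repressor of germline genes, had log2 levels of 1.69 and 1.51 in E13.5 cells, against 1.87 and 1.88 in day 7 cells, and Pcgf6, of the same complex, had log2 levels of 2.91 and 3.01 in E13.5 cells, against 3.08 and 3.12 in day 7 cells. Neither passed the test.

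Glycolysis genes were lower at E13.5 almost throughout. Of 19 tested, 15 were lower and none higher, with a median log2 fold change of -2.67 (-2.86 by library 1 and -1.97 by library 2), against 0.27 over all genes. Slc2a3, a glucose transporter, had log2 levels of 2.61 and 2.97 in E13.5 cells, against 6.05 and 6.09 in day 7 cells, a log2 fold change of -3.28 ± 0.19 (adjusted p = 5.6e-07). Pgk1, an X-linked phosphoglycerate kinase, had log2 levels of 4.18 and 4.56 in E13.5 cells, against 7.05 and 7.03 in day 7 cells, a log2 fold change of -2.67 ± 0.20 (adjusted p = 3.7e-06). Ldha, which makes lactate, had log2 levels of 3.31 and 1.88 in E13.5 cells, against 6.38 and 6.33 in day 7 cells, a log2 fold change of -3.77 ± 0.39 (adjusted p = 2.6e-05). Aldoa, an aldolase, fell with a log2 fold change of -2.78 ± 0.39, the hexokinase gene Hk2 with -2.65 ± 0.35, and the phosphofructokinase genes Pfkl and Pfkp with -2.99 ± 0.34 and -4.54 ± 0.32. Pkm, pyruvate kinase, had log2 levels of 4.57 and 6.07 in E13.5 cells, against 6.52 and 6.42 in day 7 cells, and was called lower without library 2 (-1.90, adjusted p = 0.0071) but not with both libraries (adjusted p = 0.075). None of the 20 alternative settings gave a member called higher. Signal summed over the list, in multiples of the array's 75th percentile, was 321 and 511 at E13.5, against 1759 and 1677 at day 7.

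Subunits of oxidative phosphorylation moved the other way by smaller amounts. Of 27 tested genes, 16 were higher and 1 lower, with a median log2 fold change of 0.62, against 0.27 over all genes. Over 2-fold above the day 7 mean were 7 of the 27 in library 1 and 11 in library 2, against 28.0% and 25.3% of all genes. In each library 1 gene lay over 2-fold below it. Cox7a2, of cytochrome c oxidase, had log2 levels of 5.38 and 5.83 in E13.5 cells, against 4.04 and 4.16 in day 7 cells, a log2 fold change of 1.51 ± 0.21 (adjusted p = 0.00021). Cox6c, of the same complex, had log2 levels of 6.70 and 6.42 in E13.5 cells, against 5.05 and 5.27 in day 7 cells, a log2 fold change of 1.40 ± 0.16 (adjusted p = 5.8e-05). Genes of complex I rose as well, Ndufb5 by a log2 fold change of 1.30 ± 0.18, Ndufv1 by 1.21 ± 0.20 and Ndufs1 by 1.07 ± 0.14. Cox6b2, a testis form of its subunit, was the one lower, with log2 levels of 1.73 and 2.23 in E13.5 cells, against 3.84 and 3.61 in day 7 cells. The count higher was 7 with arrays scaled to their median, 7 with array weights, 8 without day 7 replicate 1 and 10 without day 7 replicate 2.

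**Figure D5:**
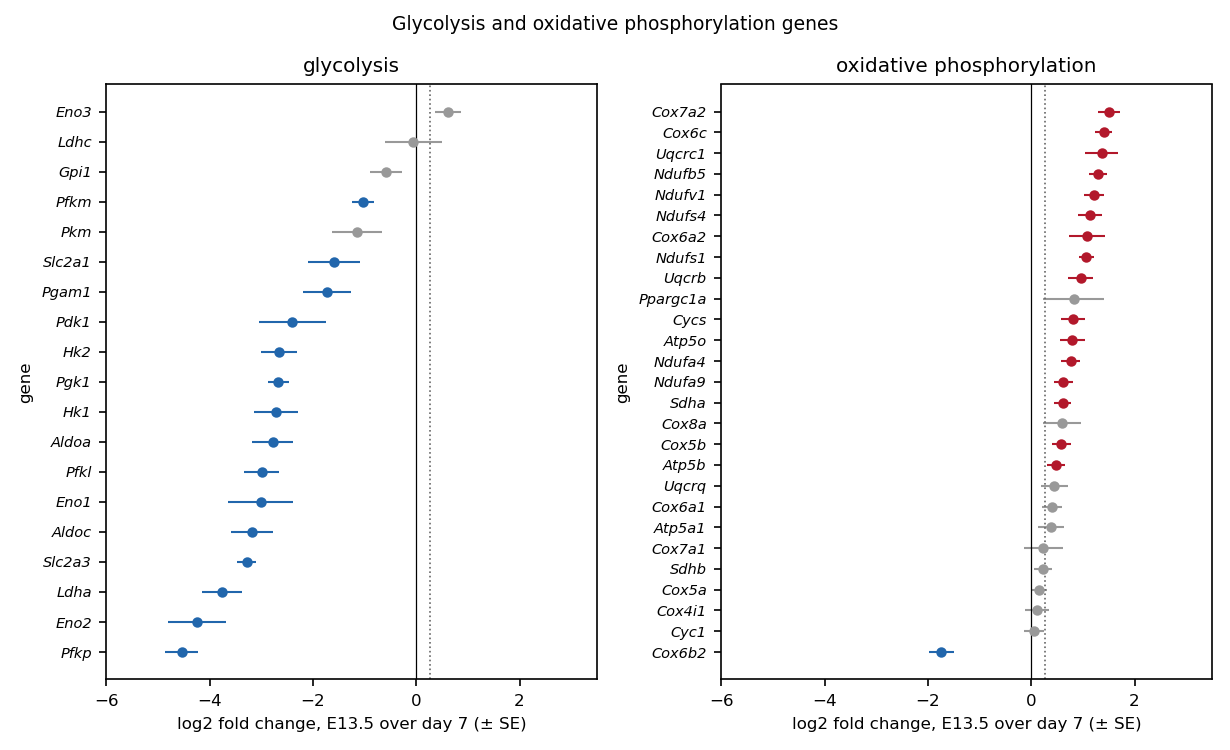
Log2 fold change of E13.5 over day 7 with its standard error for each tested glycolysis gene (left) and oxidative phosphorylation gene (right). Blue points were called lower, red points higher and grey points not called, and the dotted line is the median over all genes, 0.27.

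Stress, immediate-early and cell death genes leaned lower at E13.5. Of 19 tested stress and immediate-early genes, 11 were lower and 1 higher (0 higher without library 2 or without either day 7 array), with a median log2 fold change of -1.48 (-1.40 by library 1 and -0.67 by library 2). Hspb1, a small heat shock protein, had log2 levels of 1.35 and -0.13 in E13.5 cells, against 4.94 and 4.79 in day 7 cells, a log2 fold change of -4.26 ± 0.38 (adjusted p = 1.2e-05). Klf6 fell with a log2 fold change of -2.36 ± 0.19 and Junb, an AP-1 subunit, with -2.10 ± 0.16, whereas Fos had log2 levels of -1.19 and -2.04 in E13.5 cells, against -1.51 and -1.44 in day 7 cells and did not pass the test. Of 15 apoptosis genes, 7 were lower and 2 higher (4 lower without day 7 replicate 1). Apaf1, of the apoptosome, had log2 levels of -1.07 and -1.05 in E13.5 cells, against 1.16 and 1.10 in day 7 cells, a log2 fold change of -2.19 ± 0.33 (adjusted p = 0.00035). Bcl2, a survival factor, rose by a log2 fold change of 1.50 ± 0.36.

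Of 24 proliferation genes tested, 3 were higher (12.5%, against 26.5% of all genes) and 6 lower (25%, against 16.7%), with 1 higher without day 7 replicate 1. Their median log2 fold change was -0.08, and was -0.30 by library 1, 0.08 by library 2 and 0.07 after normexp correction. Mki67, the Ki-67 antigen gene, had log2 levels of 4.45 and 5.21 in E13.5 cells, against 4.87 and 4.79 in day 7 cells. Kif11, a spindle motor gene, had a log2 fold change of -1.50 ± 0.23 and Mcm6, of the replicative helicase, one of 0.79 ± 0.20. Among G1 regulators, 6 of 16 were higher and 4 lower. Cdkn1c, which encodes the inhibitor p57, had log2 levels of 3.60 and 2.92 in E13.5 cells, against 1.59 and 1.51 in day 7 cells, a log2 fold change of 1.71 ± 0.38 (adjusted p = 0.004). Cdkn1b, which encodes p27, had log2 levels of -1.90 and -1.26 in E13.5 cells, against 0.01 and -0.05 in day 7 cells, a log2 fold change of -1.56 ± 0.26 (adjusted p = 0.0007). The retinoblastoma gene Rb1 rose by a log2 fold change of 1.34 ± 0.28, and its relative Rbl1 fell with -1.59 ± 0.28.

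Markers of other cells of the gonad and blood were measured at E13.5, some of them well above the 75th percentile. Of 17 tested Sertoli cell genes, 6 were higher (35.3%, against 26.5% of all genes) and none lower. Of 9 pregranulosa genes, 3 were higher (33.3%) and none lower. Both shares were near that of all genes, but the libraries differed in Sertoli genes. Over 2-fold above the day 7 mean were 6 of the 17 in library 1 and 11 in library 2, against 28.0% and 25.3% of all genes. Over 2-fold below it were 2 and 0 (17.6% and 15.7% of all genes). Library 2 was over 2-fold above library 1 for 9 of the 17 (11.3% of all genes were), and library 1 above library 2 for 1 (14.6%). Of 9 macrophage genes 5 were higher (55.6%) and 1 lower, and of 8 erythroid genes 4 were higher and none lower. Rspo1, a secreted activator of Wnt signals in the ovary, had log2 levels of 2.11 and 2.86 in E13.5 cells, against -0.52 and -0.55 in day 7 cells, a log2 fold change of 3.02 ± 0.37 (adjusted p = 8.4e-05). Fewer pregranulosa genes were called without library 1 (1), day 7 replicate 1 (2) or day 7 replicate 2 (1), and fewer erythroid genes without library 2 or either day 7 array (2 each time). After normexp correction the medians of these 4 lists were -0.05, -0.12, -0.04 and -0.24, in place of 1.16, 1.32, 2.44 and 0.75, and the counts higher were 2, 1, 0 and 2. The median of the Sertoli list was 0.61 by library 1 and 2.49 by library 2. The signal summed over that list, in multiples of the array's 75th percentile, was 3.27 and 12.4 at E13.5, against 2.49 and 2.42 at day 7. Over the pregranulosa list it was 5.75 and 8.05 at E13.5, against 1.17 and 1.13 at day 7. Rspo1 alone made up most of that E13.5 sum, and its log2 level on the ES cell arrays was 0.22 to 2.05. The signal summed over the macrophage list was 1.22 and 0.83 at E13.5, against 1.38 and 1.32 at day 7. Most of that day 7 sum came from 1 member, the one called lower. Of the 9 macrophage genes, 7 were higher on both E13.5 arrays than on both day 7 arrays. Over the erythroid list the summed signal was 2.04 and 3.27 at E13.5, against 0.51 and 0.43 at day 7.

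Among their defining genes, Dhh, the Sertoli cell signal, had log2 levels of -3.28 and 1.97 in E13.5 cells, against -6.17 and -6.67 in day 7 cells, and was at least 2.43-fold higher in library 1 and 93-fold in library 2. Sox9, which directs Sertoli cell fate, had log2 levels of -7.60 and -1.76 in E13.5 cells, against -5.95 and -5.42 in day 7 cells, and was well above background in library 2 alone. Amh, a Sertoli cell hormone gene, had log2 levels of -5.00 and -1.30 in E13.5 cells, against -4.31 and -4.30 in day 7 cells, and was likewise above background in library 2 alone. Without library 1, the log2 fold change was 3.93 for Sox9 and 3.01 for Amh. Without library 2 that of Sox9 was -1.91, between levels that were not well above background on any of the arrays left, so it shows no fall. Hba-a1, the alpha-globin gene, had log2 levels of 0.38 and 1.12 in E13.5 cells, against -3.34 and -2.93 in day 7 cells, a log2 fold change of 3.89 ± 0.45 (adjusted p = 5.5e-05) that its near-identical copy may share, and Hbb-y, an embryonic beta-globin gene, was at least 11.6-fold higher. The leukocyte gene Ptprc was not well above background on any of the 4 arrays, and the macrophage gene C1qc was at least 3-fold higher. The part of such cells in the results above was not tested.

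Epithelial genes, which ES cells and other cells of a culture can express, were lower at E13.5 more often than genes at large, and fibroblast genes were mixed. Of 15 tested epithelial genes 7 were lower and none higher (4 lower without either day 7 array), with a median log2 fold change of -1.32 (-0.81 by library 1 and -2.15 by library 2). Cldn4, a tight junction gene, was at least 56.1-fold lower at E13.5, where it was not above background. Its log2 levels were 0.67 and 0.19 in day 7 cells and 0.87 to 2.60 on the ES cell arrays. Krt8, a keratin of simple epithelia, had log2 levels of 0.32 and 0.66 in E13.5 cells, against 2.93 and 2.82 in day 7 cells, a log2 fold change of -2.39 ± 0.45 (adjusted p = 0.0015). Epcam, an adhesion gene that germ cells share, had log2 levels of 2.57 and 3.89 in E13.5 cells, against 3.09 and 3.07 in day 7 cells and did not pass the test. Of 23 fibroblast genes, 6 were lower and 3 higher (1 higher without either day 7 array). Col1a2, of type I collagen, had log2 levels of -1.20 and -0.55 in E13.5 cells, against 1.61 and 1.53 in day 7 cells, a log2 fold change of -2.45 ± 0.50 (adjusted p = 0.0025), and the smooth muscle gene Tagln had log2 levels of -1.07 and -1.75 in E13.5 cells, against 1.44 and 1.43 in day 7 cells, a log2 fold change of -2.84 ± 0.33 (adjusted p = 5.4e-05). On the ES cell arrays the log2 level was 0.92 to 6.18 for Krt8, 0.85 to 4.47 for Col1a2 and 1.89 to 5.65 for Tagln. Summed fibroblast signal was 22.5 and 27.5 times the 75th percentile at E13.5, against 40.4 and 39.8 at day 7. The part of other cells of the culture in these levels was not tested.

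Most of the largest changes were of genes outside these lists. Among the 12 largest rises, Bnc1, a zinc finger gene of germ cells and keratinocytes, had log2 levels of -0.40 and 0.64 in E13.5 cells, against -6.36 and -6.44 in day 7 cells and was at least 25.7-fold higher. Myo7a, an unconventional myosin gene, was at least 37.1-fold higher, Lrrc4, a synaptic adhesion gene, at least 31.2-fold, and Ppp1r3d, a phosphatase subunit gene, at least 25.1-fold. Egr4, a zinc finger factor gene, had log2 levels of -1.61 and 2.91 in E13.5 cells, against -6.66 and -5.63 in day 7 cells, and was at least 7.73-fold higher in library 1 and 178-fold in library 2. Prim2, a DNA primase subunit gene, had log2 levels of 2.12 and 1.55 in E13.5 cells, against -5.20 and -3.30 in day 7 cells, a log2 fold change of 6.08 ± 0.50 (adjusted p = 6.6e-06). ES cells of the Stella-GFP line had levels of -3.92 to -3.21 for Prim2, and those of the Dazl-GFP line 1.35 to 1.64. The reporter lines thus already differed in this gene as ES cells. Lhx1os, a non-coding RNA gene beside Lhx1, had log2 levels of -0.50 and 2.86 in E13.5 cells, against -6.27 and -5.08 in day 7 cells, and was at least 16.7-fold higher in library 1 and 171-fold in library 2. Syn2, a gene of synapses, had log2 levels of 2.54 and -1.72 in E13.5 cells, against -5.02 and -6.39 in day 7 cells, and was at least 137-fold and 7.19-fold higher in libraries 1 and 2. Clstn2, also of synapses, had log2 levels of 1.64 and -2.01 in E13.5 cells, against -5.66 and -6.50 in day 7 cells, and was at least 73.8-fold and 5.86-fold higher. Tdrd1, Asz1 and Slc25a31 complete the 12.

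Among the 12 largest falls, Aire, which drives self-antigen expression in the thymus, had log2 levels of -4.73 and -3.78 in E13.5 cells, against 4.05 and 3.90 in day 7 cells, a log2 fold change of -8.23 ± 0.39 (adjusted p = 1.7e-07). Mt1, a metallothionein gene, had log2 levels of -0.79 and -1.09 in E13.5 cells, against 5.65 and 5.45 in day 7 cells, a log2 fold change of -6.49 ± 0.24 (adjusted p = 2.9e-08). The small heat shock gene Hspb8 was at least 131-fold lower, the hedgehog effector gene Gli2 at least 58.5-fold, the non-coding RNA gene Eprn at least 47.6-fold, Lrrc15 at least 57.1-fold, the ubiquitin-like gene Ubd at least 34.9-fold, and Gad1, a GABA synthesis gene, at least 44.1-fold. Calca, the calcitonin gene, had log2 levels of -7.45 and -4.79 in E13.5 cells, against 0.74 and 0.64 in day 7 cells, and was above background in library 2 but not library 1, while its other probe gave a log2 fold change of -0.27. Dnmt3l, Spp1 and Cldn4 complete the 12. The 12 rises and 12 falls were picked only among genes whose E13.5 arrays both lay on the same side of both day 7 arrays, so that separation is no result.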

How the data were processed

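RNA of 18 samples was hybridised to 1-colour arrays, 2 in each of 9 groups. The authors read the scans with Feature Extraction (version 9.1.3.1 and 2 protocols, per the file headers), and the deposited signals are intensity values on a linear scale with background subtracted and no scaling across arrays. A deposited table of group means was not used. From the 43379 non-control spots an array, spots of a probe were averaged (172 of 41174 probes, flagged as outliers in every spot, were left out), and the log2 level relative to the array's 75th percentile was taken here from the deposited linear intensity. Probes were named through RefSeq accessions (22951), symbols (6659) or synonyms (3096), or kept the files' name (8468). The 28114 probes well above background on both arrays of a group were kept, and the brightest over all arrays stood for its gene, giving 18876 genes, 6521 of them with several tested probes.

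All 9 groups were fitted with limma 3.58.1 in R 4.3.3 (9 residual and 2.39 prior degrees of freedom), and E13.5 minus day 7 was drawn from it with moderated two-sided tests, Benjamini-Hochberg adjusted over all genes. The fit was tested on simulated data. A fold given as at least N sets the higher group's mean against the floor of the array, or the probe's own level where higher, and is given per library where the libraries move it by over 1.5 times. The 40 gene lists come from textbook knowledge, and the members, lists and rules were chosen with earlier results of these data known. The text may name a panel (Ddx4, Dazl, Dppa3, Pou5f1, Nanog, Kit, Nanos2, Stra8, Ddx3y, Eif2s3y, Xist), the 12 largest rises and falls that separate the groups, from each list its first 8 members and at most 5 called ones each way, and the 8 genes that differ most between the E13.5 arrays each way. Ptprc was named after its values were seen, and a few genes that the rule admits are not reported here. Tables were made with Python 3.11.15 and pandas 2.3.3, and figures with matplotlib 3.10.9. Alternatives changed the scaling, background correction, filters, probe choice, prior, weights, blocks, arrays fitted and fold threshold, and left out each array. Replicate numbers do not pair the samples: the deviations of same-numbered arrays correlated by 0.0086 across genes.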

Additional observations from a re-analysis of the deposited data

How the results depend on the processing

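The counts of genes higher and lower in E13.5 than in day 7 cells stayed within 1.5 times their values of 4995 and 3161 under most of 20 alternatives. Counts higher were 2790 with normexp background correction, 2419 in a fit of the 4 arrays alone, 2313 with array weights and 599 with a replicate block in a fit of the 4 arrays. Counts lower were 2099, 1463, 1868 and 563 under the same settings and 5784 with no filter on dim probes. Leaving out each array in turn gave 3296 to 4995 higher and 2169 to 3703 lower, where a lone array is assumed to vary like the other groups. The replicate block over all 18 arrays gave 5082 higher and 3210 lower, and only the number is shared within the replicates (correlation 0.0086). Of 126 called genes named in the text, 31 lost the call in the fit of the 4 arrays and 55 with the replicate block there, 15 with normexp and 13 with array weights; the cause was not tested, apart from the fewer samples of the 4-array fits. The log2 fold change of Klf2 turned to 0.32 with the probe brightest on the 4 arrays. Among genes split between the libraries, the log2 fold changes ran, over the arrays left out in turn, from -3.66 to 2.98 for Cstad, -8.72 to 1.75 for Eif2s3y, -2.26 to 3.17 for Kdm5d, -4.40 to 3.64 for Lefty1, -6.45 to 1.27 for Lefty2, -4.19 to 0.57 for Nodal, -3.43 to 4.38 for Phlda2, -6.63 to 2.30 for Pmaip1, -1.60 to 5.90 for Sct, -1.91 to 3.93 for Sox9 and -8.89 to 3.004 for Uba1y. The lower end of the range of Sox9 compares levels that were not well above background. Signal over background limits 941 genes that were not well above background on any of the 4 arrays.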

Other observations

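Signalling genes divided between the libraries as well. Of 20 BMP and Nodal genes, 6 were over 2-fold higher in library 1 than in library 2, and 7 the other way (14.6% and 11.3% of all genes). Against day 7, 5 of the 20 were called higher (25%) and 3 lower (15%), shares near the 26.5% and 16.7% of all genes. Id1, a target of BMP signals, had log2 levels of 3.22 and -0.24 in E13.5 cells, against -2.67 and -1.95 in day 7 cells, a log2 fold change of 3.80 ± 0.77 (adjusted p = 0.0022), and Id3, another such target, had log2 levels of 4.72 and 2.69 in E13.5 cells, against 0.94 and 0.74 in day 7 cells, a log2 fold change of 2.87 ± 0.51 (adjusted p = 0.00095). For both genes library 1 lay above library 2 and both lay above day 7. Smad1, a transducer of BMP signals, had log2 levels of 0.50 and 1.48 in E13.5 cells, against 2.83 and 2.83 in day 7 cells, a log2 fold change of -1.84 ± 0.28 (adjusted p = 0.00034). Of 15 retinoic acid and Kit genes, 4 were higher (26.7%, against 26.5% of all genes) and none lower. Aldh1a1, an enzyme that makes retinoic acid, had log2 levels of -1.94 and 1.68 in E13.5 cells, against -5.03 and -4.20 in day 7 cells, and was at least 5.39-fold higher in library 1 and 66.3-fold in library 2. Cyp26b1, which breaks retinoic acid down, had log2 levels of -1.99 and -1.79 in E13.5 cells, against -4.35 and -3.60 in day 7 cells, a log2 fold change of 2.09 ± 0.39 (adjusted p = 0.0013).

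Of 26 imprinted genes, 6 were higher and 6 lower, 23.1% each way, against 26.5% and 16.7% of all genes. Impact had log2 levels of 0.52 and 0.75 in E13.5 cells, against 3.58 and 3.53 in day 7 cells, a log2 fold change of -2.92 ± 0.23 (adjusted p = 4.7e-06), and Sgce, a sarcoglycan gene, had log2 levels of -2.69 and -2.74 in E13.5 cells, against 1.04 and 0.86 in day 7 cells, a log2 fold change of -3.66 ± 0.35 (adjusted p = 1.6e-05). Ndn, which encodes necdin, had log2 levels of 0.66 and 0.58 in E13.5 cells, against -0.44 and -0.51 in day 7 cells, a log2 fold change of 1.09 ± 0.21 (adjusted p = 0.0018). Meg3, a maternally expressed RNA, had a log2 fold change of -2.74 ± 0.36 by its brightest probe, and the least of its 5 probes gave 0.10. Genes of the primitive streak and mesoderm were higher in 7 of 20 cases (35%, against 26.5% of all genes). Their median log2 fold change of 0.97 was -0.19 after normexp correction. Fgf8, a signal of the streak, had log2 levels of 0.37 and 0.80 in E13.5 cells, against -2.67 and -2.70 in day 7 cells, a log2 fold change of 3.27 ± 0.35 (adjusted p = 3.3e-05). Tsix, the antisense partner of Xist, was at least 3.61-fold lower at E13.5, where it was not above background on either array.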
